A study of Monodelphis domestica with 18 samples.

Results

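The transcripts followed here encode enzymes that carry the kynurenine made from tryptophan toward NAD. They were measured in OK cells, a proximal tubule line from opossum kidney, grown on permeable supports. The labels and the genome used for alignment are of Monodelphis domestica, whereas the line is known as one from the Virginia opossum, Didelphis virginiana. How differences between these species bear on the level of each gene was not examined. The members were chosen by name as HAAO, ACMSD, KMO, KYNU, AFMID and QPRT, and 5 of the 6 have a row among the 23899 genes of the deposited count table. QPRT, the quinolinate phosphoribosyltransferase, is not analysed here. Each of the 5 genes has 1 row, and all 5 passed the filter on low counts, which kept 12840 genes for testing. There were 18 libraries, 3 for each of 6 conditions. Cells were exposed to orbital shear stress (OSS, shaking at 146 rpm) for 12, 48 or 96 h, or kept under static conditions and harvested at 0, 48 or 96 h. No genotype or drug differed between the conditions, and RNA from 3 experiments had been pooled for each library. No static library was taken at 12 h, so an effect of 12 h of OSS and one of 12 h more in culture cannot be told apart.

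In this pathway, TDO2, IDO1 or IDO2 open the indole ring of tryptophan, and the formamidase AFMID releases kynurenine. KMO hydroxylates kynurenine, the kynureninase KYNU cleaves the product to 3-hydroxyanthranilate, and the dioxygenase HAAO opens that ring to give an unstable semialdehyde. The semialdehyde closes by itself to quinolinate, from which QPRT starts NAD synthesis, unless the decarboxylase ACMSD removes it toward the glutarate pathway, in which ALDH8A1 acts next. Liver and kidney are the main sites of this route in mammals, and in kidney it is known from the proximal tubule.

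Total counts ran between 40154553 and 79745362 per library with a median of 61146676. The proximal tubule marker list had a row for 11 of 12 genes. Megalin (LRP2) lay between 2785 and 6899 CPM and cubilin (CUBN) between 1072 and 2485 CPM over all libraries, whereas AQP1 was at or near 0, with at most 11 counts. Of the 3 hepatocyte markers, ALB had at most 7 counts and TAT at most 4, whereas CPS1, a urea cycle enzyme, had 4 to 407 counts per library. CPS1 lay between 0.997 and 4.52 CPM in OSS 96 h and between 0.0880 and 0.943 CPM in Static 96 h, a log2 fold change of 2.30 that did not pass (edgeR adjusted p = 0.0574, SE 0.86). PTPRC, the general leukocyte marker, had 2 to 51 counts per library. In bulk RNA, fewer cells expressing a gene and less of its RNA per cell cannot be told apart.

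The 5 transcripts differed widely in abundance. As counts scaled by library size and TMM factors (CPM) and divided by the length of the gene model in kb, the mean over the 18 libraries was 128 CPM per kb for HAAO (ENSMODG00000000392), which exceeded 94.4% of the tested genes. KMO (ENSMODG00000006989) followed at 41.4 CPM per kb, KYNU (ENSMODG00000002997) at 17.0 CPM per kb and AFMID (ENSMODG00000001846) at 12.1 CPM per kb. ACMSD (ENSMODG00000000715) was the least abundant at 2.84 CPM per kb, above 23.5% of the tested genes. The HAAO model spans only 861 bases against 3689 to 6676 bases for the other 4, and how much untranslated sequence each model holds was not examined, so this ranking is approximate. The order of abundance was not the order of the variation. Between the condition with the highest and the one with the lowest mean CPM, HAAO varied 13.1-fold and ACMSD 11.1-fold, against 2.67-fold for KMO, 2.58-fold for KYNU and 1.58-fold for AFMID.

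**Figure D1:**
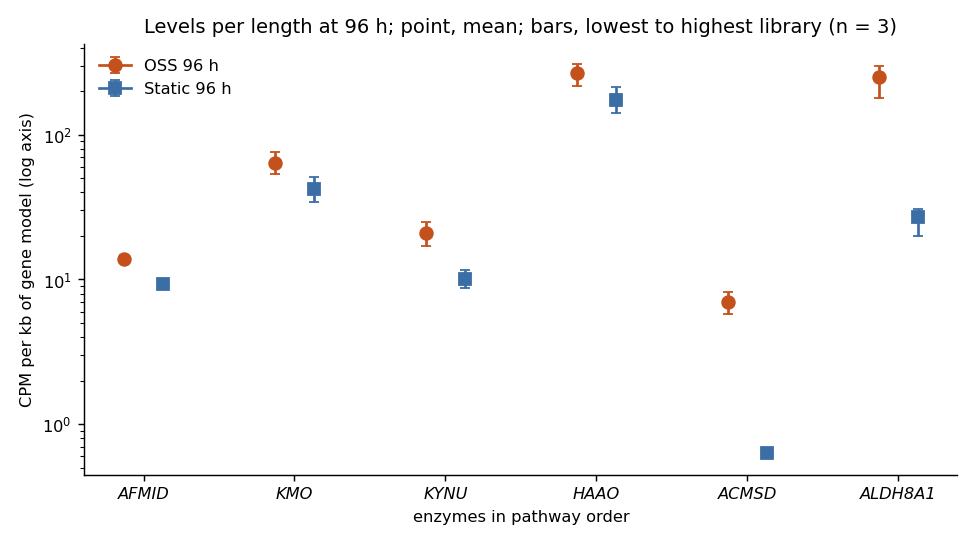
Level of each enzyme transcript at 96 h in pathway order, in CPM per kb of gene model on a log axis, with the mean as a point and the lowest and highest of 3 libraries as bars, for OSS (circles) and Static (squares). HAAO and ALDH8A1 lay at the top under OSS, and among the transcripts plotted, which leave out TDO2, IDO1 and IDO2, ACMSD was the lowest in either culture, at 7.04 CPM per kb under OSS and 0.632 CPM per kb under static conditions.

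At the end point the whole measured set was higher under shear. All 5 transcripts rose in OSS 96 h relative to Static 96 h (edgeR quasi-likelihood test with Benjamini-Hochberg adjusted p under 0.05). In that comparison 25.5% of all tested genes were higher and 26.2% lower (51.6% in either direction). On leaving out 1 library, 3 to 5 of the 5 transcripts passed, and the calls lost were those of HAAO and KMO. The 5 had been chosen with earlier results of these data known. At 48 h, ACMSD, KYNU and AFMID rose relative to Static 48 h, 3 of 5 genes against 23.5% higher and 24.5% lower among all tested genes, and HAAO and KMO did not pass. In OSS 12 h relative to Static 0 h, AFMID rose, HAAO fell and the other 3 did not pass, where 6.45% of all tested genes were higher and 6.65% lower. That balance over all genes did not hold on leaving out some libraries, since 49.2% of the calls were higher with all 6 libraries, against 14.1% of 71 calls without OSS 12 h replicate 2, 22.4% of 147 without OSS 12 h replicate 1 and 28.1% of 260 without Static 0 h replicate 2.

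Steps in time were tested within each culture. HAAO, ACMSD and KMO rose in OSS 48 h relative to OSS 12 h, 3 of 5 genes where 14.3% of all tested genes were higher and 12.8% lower (27.1% in either direction). Without scaling factors the split of calls over all genes moved, since 36.0% of them were then higher, against 52.8% with TMM factors. In OSS 96 h relative to OSS 48 h the only one of the 5 to pass was HAAO, which rose, where 0.678% of all tested genes were higher and 0.467% lower (1.14% together). In Static 48 h relative to Static 0 h, HAAO rose and AFMID fell, where 14.8% of all tested genes were higher and 15.3% lower (30.1% together), with 37.2% of the calls higher without scaling factors and 49.2% with them. In Static 96 h relative to Static 48 h none of the 5 passed in edgeR, where 5 of all tested genes did (0.0389%) and 1749 had an unadjusted p under 0.05. Of the 5, ACMSD and KYNU had such a p there, and DESeq2 called ACMSD. With the replicate number as a block, 5294 genes passed in OSS 12 h relative to Static 0 h, 5493 and 2466 in the first and second step within OSS and 103 in the late step within static culture, against 1682, 3480, 147 and 5 without it. These comparisons share libraries with each other and with those between cultures.

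**Figure D2:**
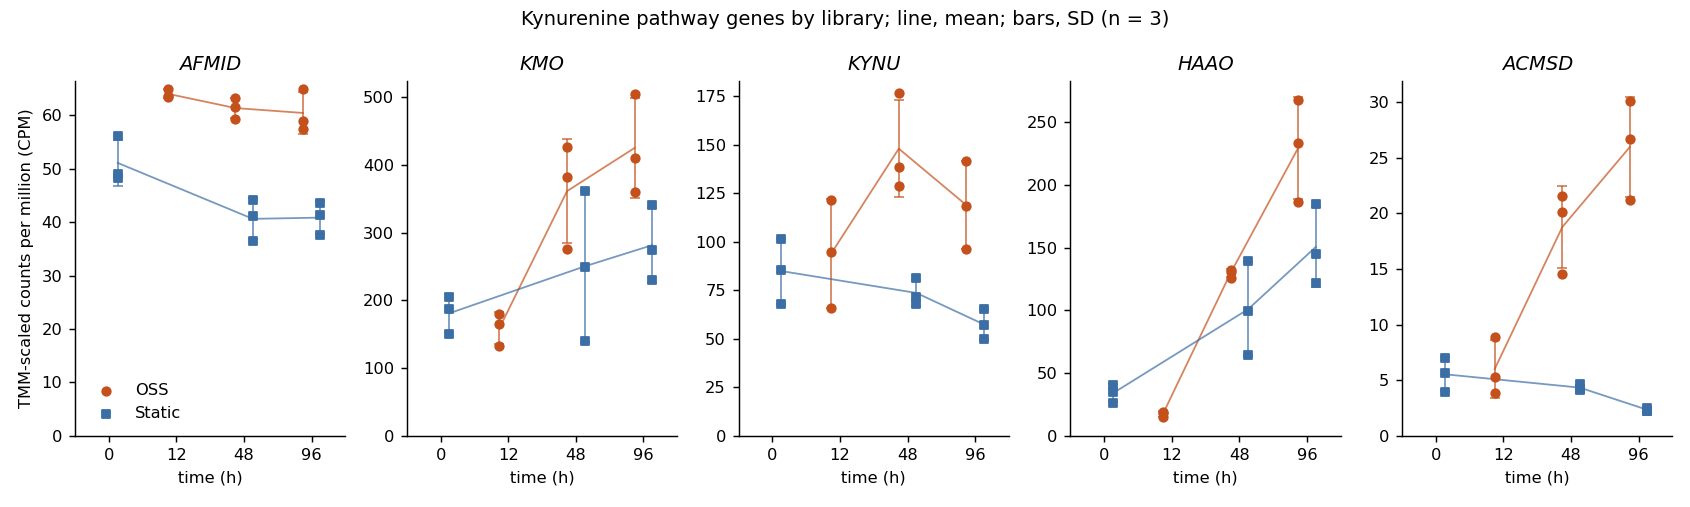
Scaled counts (CPM) of AFMID, KMO, KYNU, HAAO and ACMSD in every library against time, with OSS as circles and Static as squares, the mean as a line and the SD of 3 libraries as bars; the time axis is not to scale. ACMSD separated between the cultures at 48 and 96 h, whereas HAAO had its highest mean at 96 h in both.

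Fold changes are given with their standard error (SE). AFMID, the formamidase that frees kynurenine, was the steadiest of the 5. It had 63.7, 63.5 and 65.0 CPM in OSS 12 h, 59.4, 61.5 and 63.3 CPM in OSS 48 h and 57.5, 58.9 and 64.9 CPM in OSS 96 h. Under static conditions it had 49.0, 48.2 and 56.1 CPM at 0 h, 36.6, 41.1 and 44.2 CPM at 48 h and 37.6, 43.7 and 41.3 CPM at 96 h. Every OSS library exceeded every Static library. The log2 fold change of OSS over Static was 0.60 at 48 h (edgeR adjusted p = 3.98e-05, SE 0.08) and 0.56 at 96 h (edgeR adjusted p = 9.61e-04, SE 0.08). It was 0.35 in OSS 12 h over Static 0 h (edgeR adjusted p = 0.0427, SE 0.09). That early call was lost without scaling factors and on leaving out any 1 library other than Static 0 h replicate 3, with adjusted p = 0.0691 in the first case and between 0.0966 and 0.141 in the others. AFMID fell in Static 48 h relative to Static 0 h by 0.35 on the log2 scale (edgeR adjusted p = 0.0320, SE 0.10), a call lost on leaving out replicate 1 or 3 of Static 0 h or replicate 1 or 2 of Static 48 h, with adjusted p between 0.0536 and 0.101. Within OSS it did not pass at either step, with log2 changes of -0.06 and -0.02.

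KMO, the kynurenine hydroxylase of the outer mitochondrial membrane, spread widely between libraries of a condition. Its levels were 179, 165 and 133 CPM in OSS 12 h, 276, 382 and 426 CPM in OSS 48 h and 359, 410.2 and 505 CPM in OSS 96 h. Under static conditions they were 188, 205 and 149.8 CPM at 0 h, 139, 249 and 362 CPM at 48 h and 230.2, 274 and 340.3 CPM at 96 h. The Static 48 h libraries covered the whole range of KMO under static conditions, and the groups overlapped at 48 h but not at 96 h.

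KMO rose in OSS 48 h relative to OSS 12 h, with a log2 fold change of 1.18 (edgeR adjusted p = 0.00207, SE 0.19). In OSS 96 h it was higher than in Static 96 h by 0.59 on the log2 scale (edgeR adjusted p = 0.0230, SE 0.17), a call lost on leaving out replicate 2 or 3 of OSS 96 h or replicate 1 or 2 of Static 96 h (adjusted p between 0.0502 and 0.0721) and in a fit of all 18 libraries (adjusted p = 0.0824). At 48 h the log2 fold change of OSS over Static was 0.53 (edgeR adjusted p = 0.116, SE 0.27). Without Static 48 h replicate 3 it was 0.90 and passed (adjusted p = 0.0100), and without Static 48 h replicate 1 it was 0.24 (adjusted p = 0.396). The step within static culture to 48 h was 0.45 (edgeR adjusted p = 0.282, SE 0.30), and it passed without Static 48 h replicate 1, at 0.74 (adjusted p = 0.0247), but was 0.09 without Static 48 h replicate 3 (adjusted p = 0.828).

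KYNU, the kynureninase, differed between the cultures at both later times. It had 121, 94.8 and 65.6 CPM in OSS 12 h, 177, 139 and 129 CPM in OSS 48 h and 142, 119 and 96.3 CPM in OSS 96 h. Under static conditions it had 102, 85.3 and 68.0 CPM at 0 h, 81.2, 71.8 and 67.9 CPM at 48 h and 65.4, 57.0 and 49.8 CPM at 96 h. The lowest OSS library exceeded the highest Static library at 48 h and at 96 h. KYNU was higher in OSS 48 h than in Static 48 h by a log2 fold change of 1.01 (edgeR adjusted p = 0.00108, SE 0.21) and in OSS 96 h than in Static 96 h by 1.05 (edgeR adjusted p = 0.00137, SE 0.16). These are 2.01-fold and 2.07-fold differences.

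The steps of KYNU within OSS depended on whether the replicate numbers were used. Relative to OSS 12 h, OSS 48 h differed by 0.65 on the log2 scale (edgeR adjusted p = 0.0575, SE 0.22). With the replicate number as a block, which compares libraries of the same number, that change was 0.68 and passed (edgeR adjusted p = 2.09e-04). It also passed without OSS 12 h replicate 1 (0.88, adjusted p = 0.0232), in a fit of all 18 libraries and in DESeq2. In OSS 96 h relative to OSS 48 h the log2 difference of KYNU was -0.32 without the block (edgeR adjusted p = 0.460) and -0.33 with it (edgeR adjusted p = 0.0265). Under static conditions neither step passed, with log2 changes of -0.22 to 48 h and -0.37 from 48 to 96 h.

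HAAO, which opens the ring of 3-hydroxyanthranilate, moved most with time. It had 18.5, 19.3 and 14.6 CPM in OSS 12 h, 132, 126 and 131 CPM in OSS 48 h and 234, 187 and 268 CPM in OSS 96 h. Under static conditions it had 34.9, 40.5 and 26.5 CPM at 0 h, 64.5, 99.3 and 139 CPM at 48 h and 145, 122 and 185 CPM at 96 h. The 3 OSS 12 h libraries were the lowest of the 18 and the 3 OSS 96 h libraries the highest.

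In OSS 48 h relative to OSS 12 h, HAAO rose by 2.89 on the log2 scale, or 7.41-fold (edgeR adjusted p = 2.93e-05, SE 0.15), and its p ranked 4 among 12840 genes. It rose again in OSS 96 h relative to OSS 48 h by 0.82 (edgeR adjusted p = 0.0368, SE 0.14), but that call was lost on leaving out any 1 of the 6 libraries (adjusted p between 0.0537 and 0.148) and in a fit of all 18 (adjusted p = 0.0768). Under static conditions HAAO rose in Static 48 h relative to Static 0 h by 1.56 (edgeR adjusted p = 0.00351, SE 0.28), and from 48 to 96 h the change was 0.57 (edgeR adjusted p = 0.393).

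HAAO was also compared between OSS and static libraries. It fell by 0.93 on the log2 scale in OSS 12 h relative to Static 0 h (edgeR adjusted p = 0.0199, SE 0.17), a call lost on leaving out replicate 1 or 2 of OSS 12 h or replicate 2 of Static 0 h (adjusted p between 0.0581 and 0.0692). At 48 h the log2 fold change of OSS over Static was 0.36 (edgeR adjusted p = 0.215, SE 0.23), and it was 0.67 and passed without Static 48 h replicate 3 (adjusted p = 0.0231) but 0.12 without Static 48 h replicate 1 (adjusted p = 0.651). At 96 h HAAO was higher under OSS by 0.60 (edgeR adjusted p = 0.0266, SE 0.18). That last call was lost on leaving out replicate 1 or 3 of OSS 96 h or replicate 1 or 2 of Static 96 h (adjusted p between 0.0537 and 0.0780).

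Marker transcripts of the tubule and of other cell types moved beside the 5 enzymes. Of the 10 proximal tubule markers tested, 9 rose in OSS 48 h relative to OSS 12 h, beside 14.3% of all tested genes, and 7 rose in Static 48 h relative to Static 0 h, beside 14.8%. In OSS 48 h relative to Static 48 h, 3 of the 10 rose and 1 fell, beside 23.5% and 24.5% of all tested genes. In OSS 12 h relative to Static 0 h none rose and 1 fell, beside 6.45% and 6.65%. In OSS 96 h relative to Static 96 h, 5 of the 10 rose, beside 25.5% of all tested genes. The summed level of the 11 proximal tubule markers with a row was 8323 to 10130 CPM in OSS 96 h and 6084 to 6758 CPM in Static 96 h. In Static 48 h, HAAO and KMO were low in replicate 1 and high in replicate 3. CD14, a monocyte marker of the leukocyte list, had 74.8, 212 and 313 CPM in replicates 1, 2 and 3 there. Other markers did not share that order. In the same libraries PTPRC had 0.250, 0.361 and 0.0360 CPM, CUBN 2485, 1642 and 1659 CPM and LRP2 4420, 3760 and 4350 CPM. In OSS 48 h CD14 had 71.7, 136 and 153 CPM in the same order. There KMO had 276, 382 and 426 CPM, but HAAO had 132, 126 and 131 CPM. In Static 48 h relative to Static 0 h, 1 of the 3 leukocyte markers tested rose and 1 fell. Among all tested genes 14.8% were higher and 15.3% lower in that comparison. The sum over the 4 leukocyte markers with a row was 143 to 213 CPM in OSS 96 h and 305 to 351 CPM in Static 96 h and was mostly CD14, with PTPRC near 0. Both stroma markers with a row, PDGFRB and COL1A1, fell in OSS 96 h relative to Static 96 h, beside 26.2% of all tested genes, by 1.48 and 1.51 on the log2 scale, and their sum was 16.1 to 20.4 CPM in OSS 96 h and 48.3 to 49.4 CPM in Static 96 h. Both also fell in OSS 48 h relative to Static 48 h. Of the 5 markers of other nephron segments with a row, 2 were tested. Only 1 of these rose in OSS 96 h relative to Static 96 h, beside 25.5% of all tested genes. It was SLC12A1, a salt carrier of the thick ascending limb, which rose by 2.84 on the log2 scale. The 3 endothelium markers summed to 1.75 to 2.45 CPM in OSS 96 h and 1.83 to 5.53 CPM in Static 96 h, and the only 1 tested, VWF, did not pass. The part of these transcripts in the values of the 5 enzymes was not tested.

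ACMSD, the decarboxylase at the branch away from NAD, showed the widest separation between the cultures. It had 5.24, 8.89 and 3.86 CPM in OSS 12 h, 21.6, 20.2 and 14.6 CPM in OSS 48 h and 30.1, 26.7 and 21.2 CPM in OSS 96 h. Under static conditions it had 5.69, 6.98 and 3.94 CPM at 0 h, 4.15, 4.62 and 4.23 CPM at 48 h and 2.27, 2.48 and 2.25 CPM at 96 h. The raw counts behind these values ran between 103 and 1920 per library.

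ACMSD was 4.33-fold higher in OSS 48 h than in Static 48 h (log2 fold change 2.11, edgeR adjusted p = 1.81e-05, SE 0.27) and 11.1-fold higher in OSS 96 h than in Static 96 h (log2 fold change 3.47, edgeR adjusted p = 1.58e-05, SE 0.15). On leaving out any 1 library these changes stayed between 2.00 and 2.27 at 48 h and between 3.35 and 3.60 at 96 h. At 96 h the p of ACMSD ranked 51 and its change exceeded that of 99.8% of the 12840 genes. In OSS 12 h relative to Static 0 h the difference was 0.15 (edgeR adjusted p = 0.788, SE 0.33), with overlapping libraries.

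Of the steps in time within a culture, only OSS 48 h relative to OSS 12 h passed for ACMSD in edgeR. Within OSS, ACMSD rose in OSS 48 h relative to OSS 12 h by 1.64 on the log2 scale (edgeR adjusted p = 0.00363, SE 0.29), and from 48 to 96 h the change was 0.47 (edgeR adjusted p = 0.391, SE 0.28). Within static culture the changes were -0.37 to 48 h (edgeR adjusted p = 0.196, SE 0.20) and -0.91 from 48 to 96 h (edgeR adjusted p = 0.201, SE 0.20). Without Static 0 h replicate 3 the first was -0.55 and passed (adjusted p = 0.0404), and without Static 0 h replicate 2 it was -0.17 (adjusted p = 0.548). In DESeq2 the second passed (adjusted p = 0.0139). All 3 libraries of Static 96 h lay below those of Static 48 h.

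Whether the late change differed between the cultures was tested directly. For ACMSD the log2 change from 48 to 96 h in OSS minus that in Static was 1.36 (edgeR adjusted p = 0.208, SE 0.37), and no gene of the 12840 passed (0%), while 1580 had an unadjusted p under 0.05. With the replicate number as a block it was 1.37 and passed (edgeR adjusted p = 0.0243), as did 138 genes in all. DESeq2 also called ACMSD (adjusted p = 0.0354), with 225 genes in all. For HAAO the difference was 0.25 (SE 0.33), for KMO 0.06 (SE 0.38), for KYNU 0.04 (SE 0.29) and for AFMID -0.03 (SE 0.12), and none of these 4 passed.

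**Figure D3:**
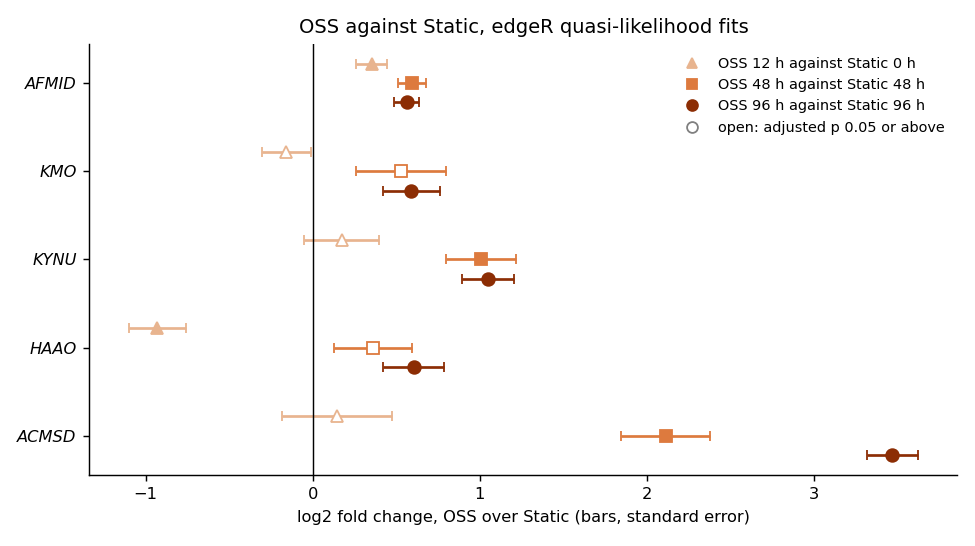
Log2 fold change of OSS over Static for each enzyme transcript at 3 times, with the standard error of edgeR as bars and filled symbols for an adjusted p under 0.05. At 96 h all 5 lie to the right of 0 and are filled, with ACMSD farthest out at 3.47, and HAAO lies at -0.93 in OSS 12 h over Static 0 h.

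The order of the 6 conditions was not the same for the 5 transcripts. HAAO was highest in OSS 96 h (230 ± 40.7 CPM, SD, n = 3), ahead of Static 96 h, OSS 48 h and Static 48 h, which overlapped in sequence, and then Static 0 h and OSS 12 h. For ACMSD the OSS 96 h and OSS 48 h libraries overlapped at the top, OSS 12 h, Static 0 h and Static 48 h overlapped in the middle, and Static 96 h (2.33 ± 0.129 CPM) stood below all others. KMO ran in the order OSS 96 h, OSS 48 h, Static 96 h, Static 48 h, Static 0 h and OSS 12 h, with each neighbour overlapping the next. KYNU peaked in OSS 48 h (148 ± 25.2 CPM) and was lowest in Static 96 h (57.4 ± 7.80 CPM), which alone did not overlap its neighbour. AFMID was the only 1 of the 5 with its highest mean in OSS 12 h (64.1 ± 0.842 CPM).

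Libraries of the same replicate number deviated together for most of the 5 transcripts. KYNU was highest in replicate 1 and lowest in replicate 3 in 6 of 6 conditions, and ACMSD was lowest in replicate 3 in 5 of 6. AFMID was highest in replicate 3 in 5 of 6. KMO was lowest in replicate 1 and highest in replicate 3 in 4 of 6, namely at 48 and 96 h in both cultures, whereas in OSS 12 h and Static 0 h replicate 3 was the lowest. HAAO had no such order, with replicate 3 highest in 3 conditions and lowest in 2, and replicate 2 highest in 2 and lowest in 3.

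**Figure D4:**
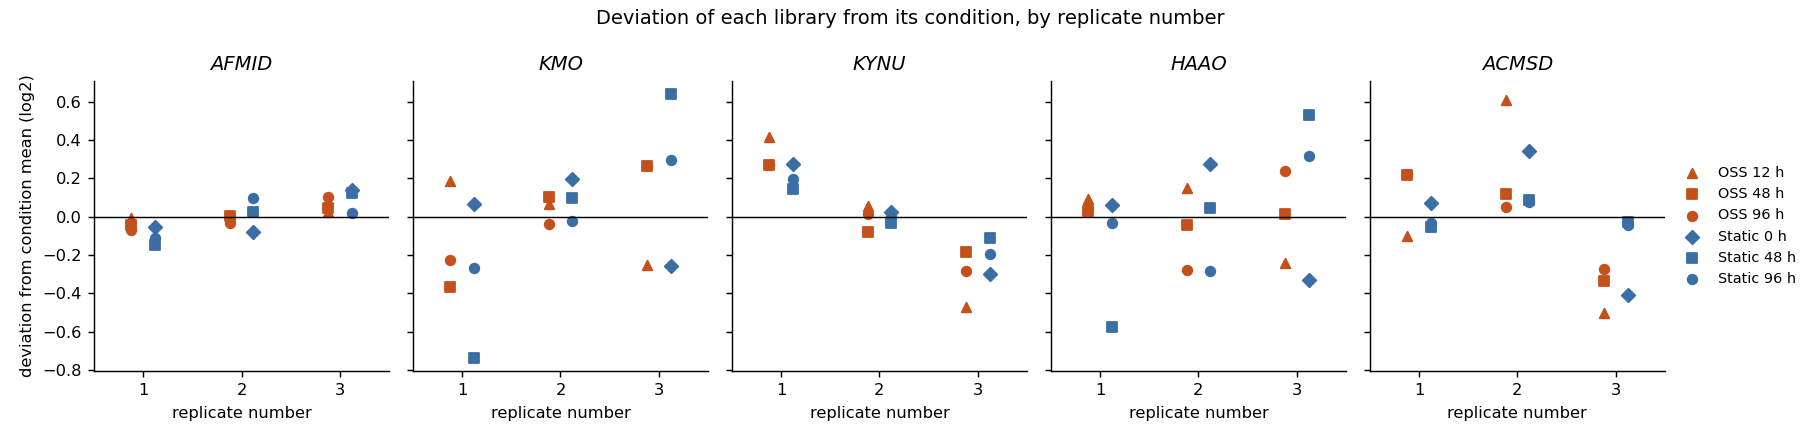
Deviation of every library from the mean of its condition, on the scale of log2(CPM + 0.5), against its replicate number, with OSS in orange and Static in blue and a symbol for each time. KYNU lies above 0 in replicate 1 and below 0 in replicate 3 in all 6 conditions, and AFMID stays closest to 0.

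As a description over the 18 libraries, which share conditions and replicate numbers, log2 levels of HAAO and KMO had a Pearson correlation of 0.87, and their deviations from the condition means one of 0.81. ACMSD and KYNU correlated at 0.86, and at 0.58 for the deviations. KYNU and AFMID correlated at 0.62 over the libraries but at -0.63 for the deviations. The transcripts outside the pathway most like ACMSD over these libraries were CTAGE1 (0.98), ALDH1A1 (0.97, 1 of 2 rows with that symbol) and PANK1 (0.97). For HAAO they were ALDH6A1 (0.96), SNX10 and DPP7 (0.95 each), for KMO 4930402F06RIK (0.97), NXPE3 (0.96) and SCCPDH (0.95), for KYNU ACSL1, ANKS4B and AOC2 (0.96 each), and for AFMID AGMAT, RPP14 and PRPF4 (0.98 each, the last 1 of 2 rows).

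Upstream of AFMID, the ring-opening enzymes were hardly detected and were not tested. TDO2 had 17 to 52 counts per library, with a mean of 0.436 CPM in OSS 96 h and 0.640 CPM in Static 96 h. IDO1 had 0 to 10 counts and IDO2 0 to 57 counts per library. IDO2 averaged 0.193 CPM in OSS 96 h and 0.604 CPM in Static 96 h.

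Downstream of ACMSD, ALDH8A1, which oxidises the product of that enzyme, was likewise higher under OSS than under static conditions at 48 and 96 h. It had 387, 378 and 252 CPM in OSS 12 h, 565, 459 and 342 CPM in OSS 48 h and 440.03, 403 and 262 CPM in OSS 96 h. Under static conditions it had 215, 172 and 181 CPM at 0 h, 132, 75.5 and 46.8 CPM at 48 h and 43.8, 45.2 and 29.1 CPM at 96 h. No OSS library overlapped with a Static library, and ALDH8A1 was higher under OSS by a log2 fold change of 2.43 at 48 h (edgeR adjusted p = 3.26e-05, SE 0.33) and 3.22 at 96 h (edgeR adjusted p = 9.84e-05, SE 0.25). In OSS 12 h relative to Static 0 h it rose by 0.87 (edgeR adjusted p = 0.0226), a call lost on leaving out replicate 1 or 2 of OSS 12 h or replicate 2 of Static 0 h (adjusted p between 0.0736 and 0.0854) and in the fit of all 18 libraries (adjusted p = 0.0631).

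The other genes around tryptophan were mixed. Of the 15 listed for tryptophan entry and side branches, 8 were tested, and in OSS 96 h relative to Static 96 h 5 rose, 1 fell and 2 did not pass, with a median log2 change of 0.38, against -0.0020 over all tested genes, of which 25.5% were higher and 26.2% lower. Beside ALDH8A1, DDC, an aromatic amino acid decarboxylase, rose by 3.38 and DHTKD1, a dehydrogenase subunit in the glutarate route, by 1.09, whereas TPH1, the tryptophan hydroxylase of serotonin synthesis, fell by 1.77. At 48 h the counts were the same, 5 higher, 1 lower and 2 not passing, with DDC at 2.30 and TPH1 at -1.48. Among all tested genes, 23.5% were higher and 24.5% lower there. TPH1 was at a low level, with 11 to 132 counts per library and means of 0.518 CPM in OSS 96 h and 1.79 CPM in Static 96 h. Of the 9 carriers tested, 5 rose and 2 fell at 96 h, against the same shares over all tested genes. At 48 h only 1 rose, SLC16A10 (1.16), and 2 fell, SLC22A13 (-1.10) and SLC7A8 (-0.58), beside 23.5% and 24.5% of all tested genes, and the call of SLC7A8 was lost on leaving out replicate 2 or 3 of OSS 48 h or replicate 1 of Static 48 h (adjusted p between 0.0702 and 0.0967). Among those that rose at 96 h were the aromatic amino acid carrier SLC16A10 (1.36), SLC7A5 (1.19), the apical neutral amino acid carrier SLC6A19 (0.86) and its partner CLTRN (0.97), whose call was lost on leaving out replicate 1 or 2 of OSS 96 h or replicate 2 or 3 of Static 96 h (adjusted p between 0.0515 and 0.0833).

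Of 9 tested genes that make NAD by other routes, 3 were higher, 3 lower and 3 did not pass at 96 h, where 25.5% of all tested genes were higher and 26.2% lower. NAPRT, which starts NAD synthesis from nicotinic acid, had 16.9, 14.9 and 13.1 CPM in OSS 96 h and 5.52, 6.04 and 6.85 CPM in Static 96 h, a log2 fold change of 1.28. NAMPT, which recycles nicotinamide, had 93.8, 102.3 and 99.2 CPM in OSS 96 h and 179, 186 and 187 CPM in Static 96 h, a log2 fold change of -0.91. NMNAT3 rose by 0.62 and NADK2 by 0.47. NADSYN1, the amidating step shared with the route through quinolinate, fell by 0.41 (edgeR adjusted p = 0.00283, SE 0.07) and did not pass at 48 h, with a log2 fold change of -0.12. At 48 h 4 of the 9 rose and 1 fell, beside 23.5% and 24.5% of all tested genes, with NAPRT at 1.04 and NAMPT at -0.93.

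Of 11 tested genes that use NAD, 5 rose and 3 fell at 96 h, beside 25.5% and 26.2% of all tested genes, with BST1, which hydrolyses NAD, at 1.31, SIRT7 at 0.60, SIRT3 at -0.56 and SIRT2 at -0.39. Of 7 tested genes of the AHR list, a receptor that kynurenine metabolites can activate, 2 rose and 4 fell at 96 h, read against those same shares. CYP1B1 fell by 3.94 and TIPARP by 1.42, both target genes of AHR, and its repressor AHRR fell by 0.45. CYP1A2, also a target, rose by 1.91, a call lost on leaving out replicate 2 of OSS 96 h or replicate 2 or 3 of Static 96 h (adjusted p between 0.0595 and 0.0713). AHR itself did not pass, with a log2 fold change of -0.10.

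**Figure D5:**
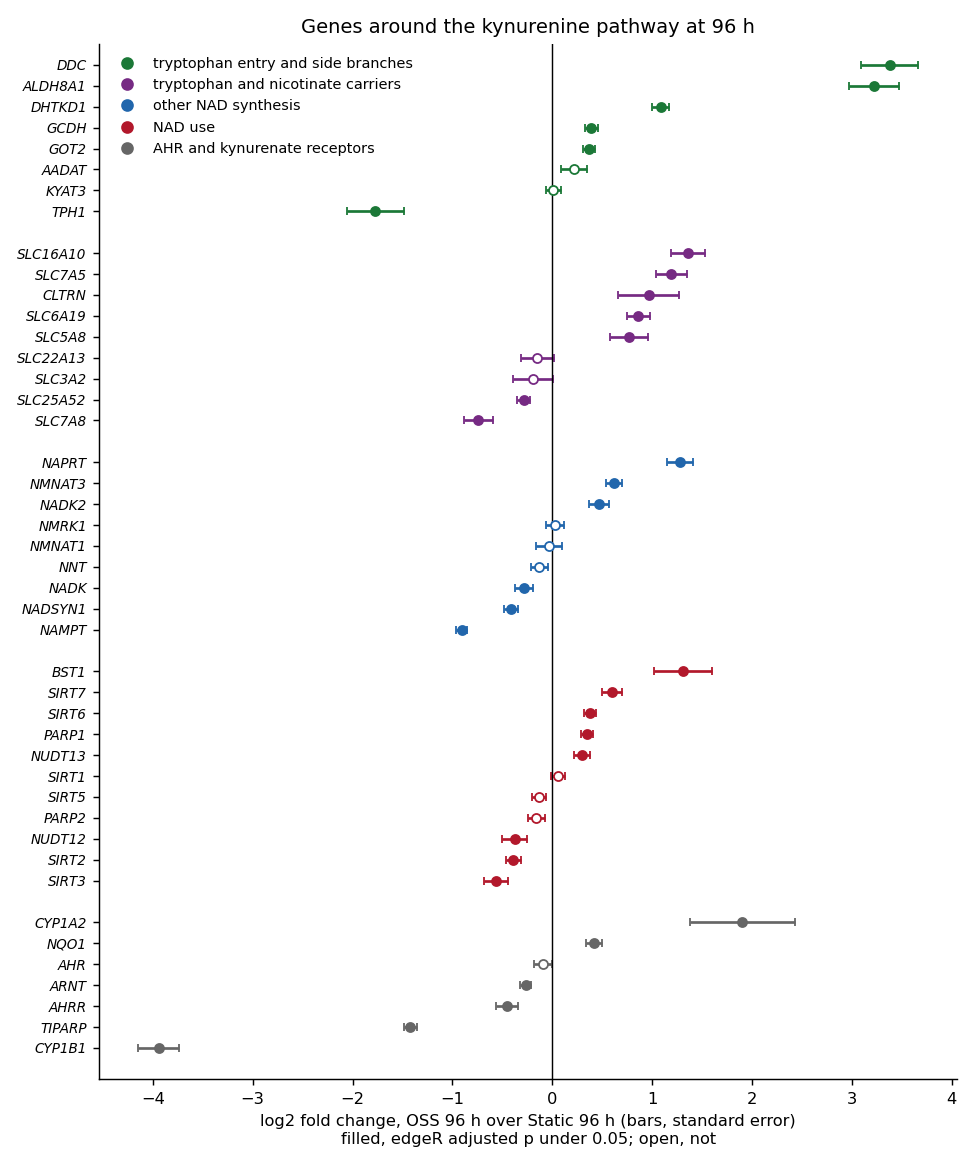
Log2 fold change of OSS 96 h over Static 96 h for the tested genes of 5 lists around the kynurenine pathway, with standard errors as bars and filled points for an edgeR adjusted p under 0.05. DDC (3.38) and ALDH8A1 (3.22) lie farthest to the right and CYP1B1 (-3.94) farthest to the left.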

How the data were processed

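RNA was measured in 18 libraries of OK cells. According to the study's methods, rRNA was removed, stranded total RNA libraries (TruSeq) were read as 75 bp pairs, and the authors used cutadapt for trimming and TopHat2 for alignment to MonDom5 and removed mitochondrial and rRNA reads. The deposited values are raw counts per gene from featureCounts of Subread, with gene lengths in bases beside them. The annotation release, tool versions and whether strand was used in counting are not given in the sources used here, so reads of overlapping or antisense genes may be included. Averages and smaller sheets in the deposit were not used.

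Libraries were grouped by their labels. A gene was tested if it exceeded 1 CPM in 6 or more of the 18 libraries, and the tested genes held 99.86 to 99.92% of the counts. The tests were edgeR 4.0.16 quasi-likelihood F-tests (R 4.3.3, limma 3.58.1; TMM factors, trended qCML dispersions, older form of the fit) with Benjamini-Hochberg adjustment over 12840 genes and a threshold of 0.05. SE was taken as the absolute log2 fold change over the square root of F. The fits took the 6 libraries of OSS 12 h and Static 0 h, the 6 of OSS 96 h and Static 96 h, the 9 of a culture for steps in time, and all 18 for OSS 48 h against Static 48 h and for the difference of the late change. Alternatives were DESeq2 1.42.0, RLE factors, no scaling factors, no filter, the replicate number as a block, all 18 libraries in 1 fit and leaving out each library. Python 3.11.15 and matplotlib 3.10.9 drew the figures. The fits of some comparisons were also run on simulated counts, with an outcome not given here. Those counts were drawn independently for each library, without the correlation of same-number libraries described below. They therefore cannot show how the fits behave under that correlation.

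All 45 same-number pairs of libraries from different conditions had correlated deviations from their condition means (0.268 to 0.782, median 0.515). For other pairs the median was -0.405, but deviations within a condition cancel out, so that value is not an independent contrast. The replicate numbers were therefore taken to pair the libraries in the block fits and in the comparison of same-number pairs. That pairing comes from the data, and the main fits did not use it. It is clearer for replicate 1 than between replicates 2 and 3. Correlations of replicate 1 with replicates 2 and 3 were negative, whereas most of those between replicates 2 and 3 were positive. For example, Static 0 h replicate 3 had 0.294 with Static 48 h replicate 2 and 0.326 with Static 48 h replicate 3. The study's methods describe the 3 samples of a time point as independent, each combining RNA of 3 experiments. No source says that the libraries of a condition came from separate days, so p-values measure the spread between these pooled samples.

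The members and the gene lists were chosen with earlier results of these data known. Genes named are every member, the direct neighbours TDO2, IDO1, IDO2, ALDH8A1 and NADSYN1, up to 4 called genes of a list with the largest changes, and the 3 genes with a symbol most correlated with each member on log2(CPM + 0.5). Marker genes of the tubule and of other cell types (LRP2, CUBN, AQP1, ALB, TAT, CPS1, PTPRC, CD14, PDGFRB, COL1A1, SLC12A1 and VWF) come from the marker lists and were chosen for naming after their values were seen, as were AHR and the per-library values of NAPRT and NAMPT. For a symbol with several rows, the row with the highest level was used. The result of 1 other marker is not reported here. No sequence or genome coordinate of these genes is given here.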

Additional observations from a re-analysis of the deposited data

Results flagged for a closer look

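ACMSD was higher at 96 h than at 48 h in every OSS pair of the same replicate number and lower in every static pair, although neither step passed in edgeR (log2 changes of 0.47 in OSS and -0.91 in static culture, adjusted p = 0.391 and 0.201). In OSS all 3 libraries were higher at 96 h than the library of the same number at 48 h, by 1.40, 1.32 and 1.45 times in replicates 1, 2 and 3. In static culture all 3 were lower at 96 h, at 0.546, 0.537 and 0.532 times the level of the same number at 48 h. The difference of the log2 changes was 1.36, which did not pass in edgeR without the replicate block and passed with it. For none of the other 4 transcripts did all 3 OSS pairs move one way and all 3 static pairs the other. How many of all tested genes did so was not counted. The pairs hold the same libraries as the difference of 1.36, for which ACMSD was flagged, so they are no separate test.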

How the results depend on the processing

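For the 5 transcripts in 8 comparisons, 500 values were computed under alternatives: 458 kept their side of the threshold, 30 lost a call, 12 gained one, and no called change reversed. Calls of ACMSD, KYNU and AFMID at 48 and 96 h between the cultures held under every alternative run. DESeq2 called 1 of the 5 in Static 96 h against Static 48 h and 1 in the difference of the late change. Without scaling factors 1 of 5 passed in OSS 12 h against Static 0 h. Without the filter 1 passed in Static 48 h against Static 0 h. In the fit of all 18 libraries 0 passed in OSS 96 h against OSS 48 h. With the replicate number as a block 2 passed there and 1 in the difference of the late change, and the block changed no call of the 5 other than those given for KYNU and ACMSD. Leaving out 1 library gave 0 to 2 passing transcripts in OSS 12 h against Static 0 h, 3 to 5 in each comparison of the cultures at 48 and at 96 h, 3 to 4 in OSS 48 h against OSS 12 h, 0 in OSS 96 h against OSS 48 h and 1 to 2 in Static 48 h against Static 0 h.

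Counts over all tested genes also moved, more in some comparisons than in others. In OSS 48 h against Static 48 h, 6161 genes passed, against 7655 with the replicate block and 5306 to 6052 without 1 library. In OSS 96 h against Static 96 h, 6631 passed, against 8309 with the block and 5438 to 6354 without 1 library. In Static 48 h against Static 0 h, 3869 passed, against 5012 with the block and 2750 to 4109 without 1 library. In OSS 12 h against Static 0 h, 1682 genes passed, against 2788 in DESeq2, 5294 with the replicate block, 3107 with all 18 libraries and 71 to 1695 without 1 library. In OSS 48 h against OSS 12 h, 3480 passed, against 5493 with the block and 2173 to 3107 without 1 library. In OSS 96 h against OSS 48 h, 147 passed, against 1105 in DESeq2, 2466 with the block, 310 with all 18 libraries and 1 to 15 without 1 library. In Static 96 h against Static 48 h, 5 passed, against 286 in DESeq2, 8 without the filter, 103 with the block, 59 with all 18 libraries and 0 to 13 without 1 library. For the difference of the late change, 0 passed, against 225 in DESeq2, 138 with the block and 0 to 24 without 1 library. The cause of these shifts was not tested. The ratio of ACMSD to QPRT was not run.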

Other observations

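Genes around the pathway also moved with time in both cultures. Of the 8 tested genes of tryptophan entry and side branches, 7 rose and none fell in OSS 48 h relative to OSS 12 h, where 14.3% of all tested genes were higher and 12.8% lower. Among the 7 were TPH1 (log2 fold change 2.01, with 11 to 132 counts per library) and DDC (1.45). Also among them were GCDH (0.69), a dehydrogenase of the glutarate route, and the kynurenine aminotransferase AADAT (0.65). In Static 48 h relative to Static 0 h, 3 rose and 1 fell, where 14.8% of all tested genes were higher and 15.3% lower: TPH1 rose by 2.71, GOT2 by 0.83 and AADAT by 0.78, and ALDH8A1 fell by 1.17. There the call of AADAT was lost on leaving out replicate 2 or 3 of Static 48 h or replicate 1 of Static 0 h, and that of ALDH8A1 on leaving out replicate 2 of Static 48 h or replicate 1 or 3 of Static 0 h, with adjusted p between 0.0634 and 0.0849. Of the 9 carriers tested, 3 rose and 1 fell in OSS 48 h relative to OSS 12 h. In Static 48 h relative to Static 0 h, 3 rose and 2 fell, read against the shares over all tested genes just given. The carrier SLC6A19 rose in both comparisons, by 2.17 in OSS and 2.13 in static culture. These steps differ in their starting point and length.

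In the first 12 h, NAMPT fell in OSS 12 h relative to Static 0 h by 0.58 on the log2 scale (edgeR adjusted p = 0.0154), SLC7A5 rose by 1.24 and SLC7A8, a carrier of the same family, fell by 1.07. The call of NAMPT was lost on leaving out replicate 1 or 2 of OSS 12 h or replicate 2 of Static 0 h (adjusted p between 0.0575 and 0.0582), that of SLC7A5 on leaving out any 1 library other than Static 0 h replicate 3 (0.0635 to 0.0886), and that of SLC7A8 on leaving out replicate 2 of OSS 12 h (0.0549).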
